A study of Homo sapiens with 3 samples.

Results

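The genes described here belong to the cellular response to low oxygen and to glycolysis. They were chosen by name, with earlier results of these data known. The 45 genes are 7 proteins of the hypoxia-inducible factor (HIF) pathway, 16 hypoxia-induced genes, 4 glucose and lactate transporters and 18 glycolytic enzymes. By symbol, 44 of the 45 matched a row of the table of 22827 genes, and INSIG2P1 was not analysed here. A minimum of 10 counts in 1 or more libraries was reached by 41 members, as it was by 12726 genes of the table. The remaining 3 members, TPI1, PGK1 and ENO2, were listed at 0 in every library, so the counts of members by ratio given below cover 41 genes and not the whole list.

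The study profiled Hep3B, a line derived from a human liver carcinoma, by RNA sequencing of 3 genotypes: the control, USP39-KO and SIRT7-KO. USP39 is a member of the ubiquitin-specific protease family that works in the spliceosome, and SIRT7 is a nuclear NAD-dependent deacylase. The labels give neither the guide nor the clone of either knockout, nor the oxygen level and medium of the cultures. Each genotype has 1 library, so no difference below has a replicate check, and all intervals are 95% exact intervals of the counting error alone. Every comparison is therefore one of these libraries rather than of the genotypes.

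The library of the control held 19427940 counts, that of USP39-KO 16630636 and that of SIRT7-KO 16151522. USP39 had 1829, 1066 and 1511 counts in that order (log2 ratio of USP39-KO to control -0.54, interval -0.65 to -0.43), and SIRT7 had 984, 808 and 608 (SIRT7-KO to control -0.44, -0.59 to -0.30). The targeted genes were at their lowest in their own knockouts, but by less than 2-fold. Of 11 hepatocyte and liver tumour markers, 9 were under 10 counts in every library and 6 of these, ALB, AFP, TTR, APOA2, APOB and GPC3, were listed at 0, which goes against the label of a hepatoma line; genes that nearly every cell uses were listed at 0 as well (TPI1 and PGK1, described below). The summed level of that list was 8.90 CPM (counts scaled to library size) in the control, 2.07 in the USP39-KO and 0.613 in the SIRT7-KO library. The epithelial list (EPCAM, KRT8, KRT18, CDH1) summed to 2069, 1587 and 1718 CPM, of which KRT8 alone gave 1940, 1481 and 1603. EPCAM had only 37, 21 and 7 counts and CDH1 24, 28 and 8. The fibroblast list of 8 genes summed to 118, 140 and 114 CPM, of which COL1A1 gave 102, 126 and 93.3, and 5 of the 8 were under 10 counts in every library. All 4 endothelial and all 3 leukocyte markers were under 10 counts.

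HIF is a dimer of an oxygen-sensitive alpha subunit (HIF1A or EPAS1) and the stable partner ARNT. In the presence of oxygen, prolyl hydroxylases of the EGLN family mark the alpha subunit, VHL binds the marked protein and it is degraded; in low oxygen the dimer accumulates and binds hypoxia response elements with the core RCGTG. Its targets include glucose transporters, most glycolytic enzymes, regulators that divert pyruvate from mitochondria, and EGLN3 itself. HIF activity is set mainly by protein stability, which transcript counts do not measure.

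The libraries were compared by the log2 ratio of TMM-normalized counts. Below, 3 levels of a gene follow the order control, USP39-KO, SIRT7-KO, and 3 ratios the order USP39-KO against control, SIRT7-KO against control, SIRT7-KO against USP39-KO. The rule for a difference, in either direction, was a ratio of 2-fold or more with an interval that excludes 0. Under that rule 10 of the 41 members (24.4%) differed in 1 or more of the 3 comparisons, where 13.1% of all 12726 genes did: HIF1A and EGLN3 among the pathway proteins, CA9, CA12, ADM, NDRG1 and ANKRD37 among the hypoxia-induced genes, SLC2A3 among the transporters, and HK2 and HKDC1 among the enzymes. Because the members were chosen with earlier results of these data known, 24.4% beside 13.1% cannot be read as an enrichment. Both comparisons with the control use the same control library, while the comparison of the knockouts with each other does not use it.

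In USP39-KO against control, 0 members were higher and 3 were lower, where 1.49% and 3.37% of all 12726 genes were. In SIRT7-KO against control, 2 members were higher and 2 lower, where 3.02% and 4.05% of all genes were. Between the knockouts, 7 members (17.1%) were higher in SIRT7-KO and 2 (4.88%) lower, where 5.03% and 3.51% of all genes were. The members' median log2 ratio was -0.08, 0.17 and 0.27 in these comparisons, and that of all genes was -0.00, -0.01 and -0.00. With the rule set at 1.5-fold, 1 member was higher and 8 lower in USP39-KO against control (all genes 3.19% and 6.40%). The same rule gave 7 higher and 3 lower in SIRT7-KO against control (all genes 7.21% and 7.83%) and 12 higher and 2 lower between the knockouts (all genes 10.3% and 7.91%). The 4 groups are given apart below.

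**Figure D1:**
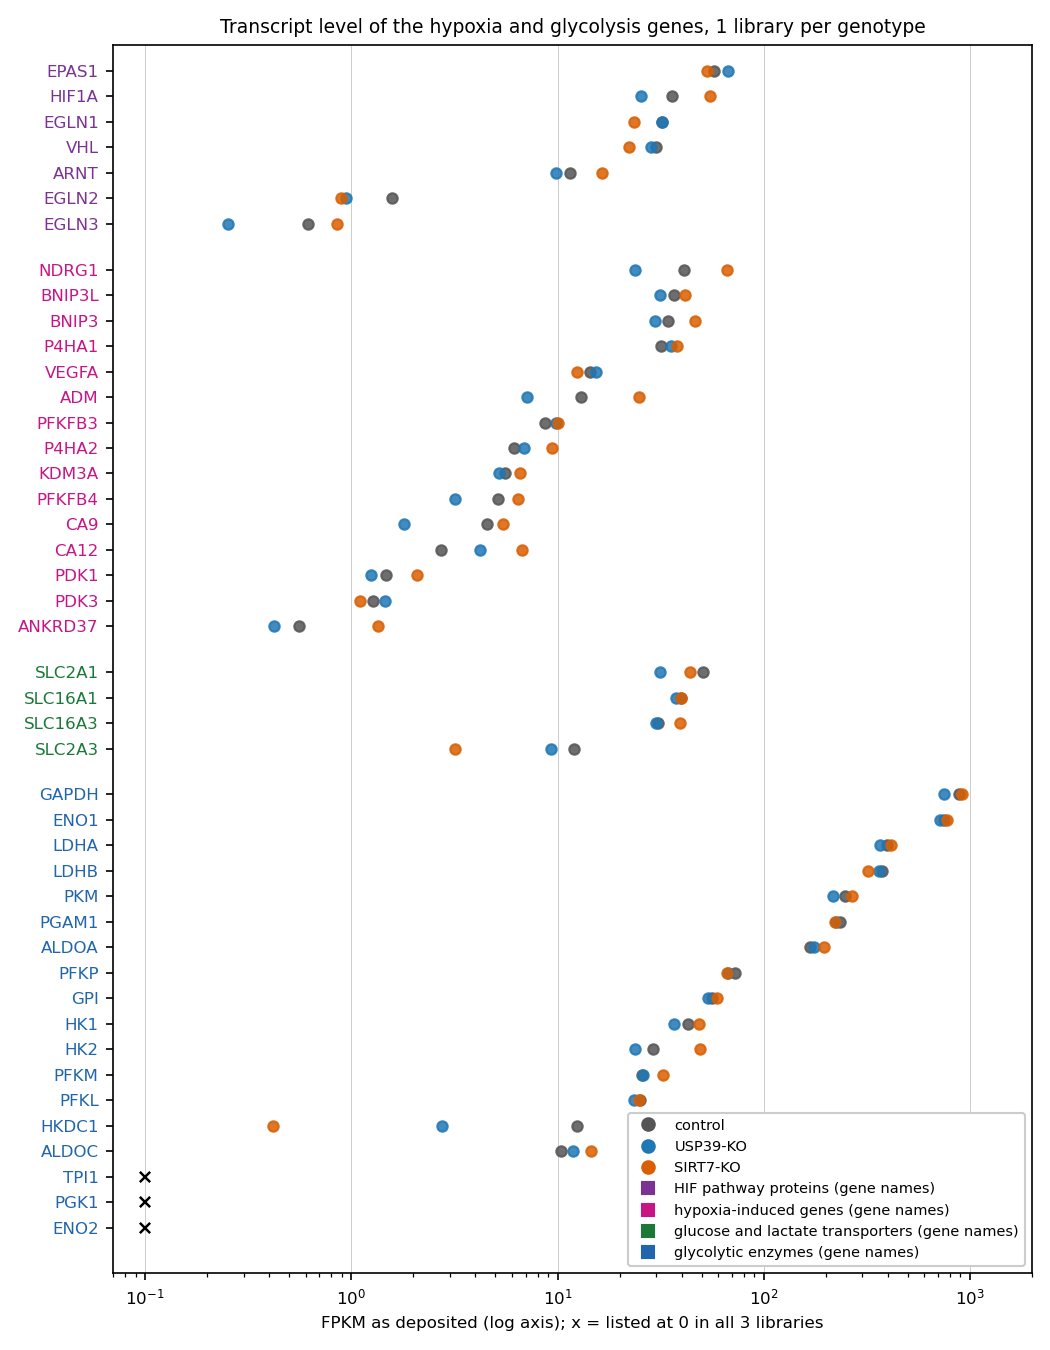
Deposited FPKM (log axis) of the 44 matched genes in the 3 libraries, 1 point per library, with gene names coloured by group. Enzymes from GAPDH to PFKL, apart from HK2, have points close together at high levels. HKDC1 spreads from 12.4 FPKM in the control to 0.417 in SIRT7-KO, and crosses mark the 3 enzymes listed at 0.

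Among the 7 HIF pathway proteins, the subunits of HIF-1 were highest in the SIRT7-KO library and lowest in the USP39-KO library. HIF1A, the alpha subunit of HIF-1, had 3593 counts in the control, 2169 in the USP39-KO and 4567 in the SIRT7-KO library, or 185, 132 and 280 CPM. Its log2 ratio was -0.49 in USP39-KO and 0.60 in SIRT7-KO against control, and 1.09 (1.01 to 1.16, 2.12-fold) between the knockouts, so it passed the rule between the knockouts only. The common partner ARNT had 1458, 1069 and 1724 counts in the same library order, with log2 ratios of -0.21, 0.49 and 0.70. EPAS1, the alpha subunit of HIF-2, had the reverse order, with 8132, 8175 and 6268 counts (419, 497 and 384 CPM) and log2 ratios of 0.25, -0.12 and -0.37. Per length, EPAS1 was the more abundant alpha subunit in the control, at 57.4 FPKM against 35.9 FPKM for HIF1A. HIF1A made up 38.5% of the summed FPKM of both subunits in the control, 27.3% in the USP39-KO and 50.8% in the SIRT7-KO library.

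The degradation arm of the pathway had a different order. EGLN1, the main prolyl hydroxylase acting on HIF in most cells, had 4534, 3891 and 2769 counts, and its log2 ratio was 0.02 in USP39-KO, -0.46 in SIRT7-KO and -0.48 between the knockouts. VHL, the substrate receptor of the ubiquitin ligase, had 2463, 1996 and 1506 counts and log2 ratios of -0.06, -0.46 and -0.39. Both were thus lowest in SIRT7-KO, and neither reached 1.5-fold. EGLN2 had 202, 103 and 95 counts, with log2 ratios of -0.73, -0.83 and -0.10, and it shares 2012 exon bases with a read-through gene (RAB4B-EGLN2) that was listed at 0. EGLN1 held over 93% of the summed FPKM of the hydroxylases in every library (93.6%, 96.4% and 93.1%).

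EGLN3 (chromosome 14, minus strand) is the hydroxylase known as a HIF target and the pathway gene that differed most. It had 88 counts in the control, 31 in the USP39-KO and 101 in the SIRT7-KO library, or 4.53, 1.88 and 6.19 CPM. The USP39-KO library was low, with a log2 ratio to control of -1.25 (-1.91 to -0.66), the SIRT7-KO library was at 0.45, and the ratio between the knockouts was 1.70 (1.12 to 2.35). By the 2-fold rule 1 of the 7 pathway genes differed in USP39-KO (EGLN3, lower), a fall shared by 3.37% of the 12726 genes. In SIRT7-KO against control 0 differed, beside a background of 3.02% (rise) and 4.05% (fall). Between the knockouts 2 differed (HIF1A and EGLN3, both higher in SIRT7-KO), beside a background of 5.03% for that direction. The group medians were -0.21, -0.12 and -0.10, and those of the 12726 genes were -0.00, -0.01 and -0.00.

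By CPM, 9 of the 15 hypoxia-induced genes were lowest in USP39-KO and highest in SIRT7-KO, an order that 22.5% of all genes had and 7 of the 15 measured enzymes. Between the knockouts 12 of 15 had a log2 ratio above 0, with a median of 0.61, and 4 passed the 2-fold rule, all higher in SIRT7-KO: ADM, ANKRD37, CA9 and NDRG1. In USP39-KO against control the median was -0.18, with 0 higher and 1 lower (CA9). In SIRT7-KO against control it was 0.30, with 2 higher (CA12 and ANKRD37) and 0 lower. A ratio above 0 between the knockouts was found for 49.6% of all genes, and 5.03% were higher and 3.51% lower by the rule. The shares of all genes higher and lower were 1.49% and 3.37% in USP39-KO and 3.02% and 4.05% in SIRT7-KO against control. Summed over the group, these genes took 0.124% of all counts in the control (0.122 to 0.125), 0.105% in the USP39-KO (0.103 to 0.106) and 0.166% in the SIRT7-KO library (0.164 to 0.168). NDRG1 alone holds much of that sum: without it the shares were 0.0836%, 0.0813% and 0.101%, so the control and USP39-KO then lay close together and SIRT7-KO was the highest.

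The start regions of 3 of these genes and of EGLN3 are shown because they have the highest ratios of SIRT7-KO to USP39-KO among members with an entry in the RefSeq promoters (GRCh38.p14). Each is the 250 bases before the annotated start, 5′ to 3′ on the gene's strand: EGLN3 at chr14:33951075-33951324 (minus strand), CA9 at chr9:35673678-35673927, ADM at chr11:10304823-10305072 and ANKRD37 at chr4:185396591-185396840 (all plus strand). Capitals mark matches to ACGTG or GCGTG, the A and G forms of the response element core, on either strand. CACGTG, the E-box, is ACGTG read on both strands at once.
EGLN3: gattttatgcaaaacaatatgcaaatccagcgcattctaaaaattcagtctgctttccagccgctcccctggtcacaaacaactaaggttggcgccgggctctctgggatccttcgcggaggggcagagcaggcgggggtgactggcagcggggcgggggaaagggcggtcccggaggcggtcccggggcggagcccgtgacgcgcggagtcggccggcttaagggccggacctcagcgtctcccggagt
CA9: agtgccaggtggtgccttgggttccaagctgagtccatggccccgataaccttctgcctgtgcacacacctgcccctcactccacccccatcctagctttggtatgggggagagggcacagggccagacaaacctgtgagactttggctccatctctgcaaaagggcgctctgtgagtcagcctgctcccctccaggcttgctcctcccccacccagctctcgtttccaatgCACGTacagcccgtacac
ADM: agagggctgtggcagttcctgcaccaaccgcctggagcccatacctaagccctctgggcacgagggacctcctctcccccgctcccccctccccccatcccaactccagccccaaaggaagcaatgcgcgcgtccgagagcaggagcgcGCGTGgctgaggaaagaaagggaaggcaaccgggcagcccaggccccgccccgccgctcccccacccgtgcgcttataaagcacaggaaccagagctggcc
ANKRD37: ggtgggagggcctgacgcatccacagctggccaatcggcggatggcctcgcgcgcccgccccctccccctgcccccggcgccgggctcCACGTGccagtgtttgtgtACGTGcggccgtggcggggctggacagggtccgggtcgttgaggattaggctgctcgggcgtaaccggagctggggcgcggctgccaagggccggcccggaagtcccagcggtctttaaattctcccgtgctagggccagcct
CA9 has 1 match, ACGTG read on the reverse strand 18 bases before the start. ADM has GCGTG 101 bases before its start. ANKRD37 has the E-box 162 bases and a further ACGTG 143 bases before its start, and EGLN3 has neither motif in this window.

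Over all 35116 RefSeq promoters of this length, 18.5% held ACGTG and 32.2% held GCGTG on either strand. Of the 10005 genes at or above the minimum count with a promoter entry, 28.5% held ACGTG and 53.4% held GCGTG in 1 or more promoters. Of the 38 members with an entry, 21 (55.3%) held ACGTG and 19 (50.0%) held GCGTG, and among the hypoxia-induced genes 7 of 12 held each. The enzymes stood at 11 of 18 for ACGTG and 9 of 18 for GCGTG. Unlike the 10005 genes, the 38 members and 18 enzymes include TPI1, PGK1 and ENO2, which are below the minimum count. All of these hold ACGTG, and TPI1 and PGK1 also hold GCGTG, so the sets are not alike. HK1, PFKM and SLC16A3 have 5 or more promoter entries each, which gives them more chances of a match. A match is a run of letters and not a binding site, and a window without one says nothing about more distant elements.

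ADM encodes adrenomedullin, a secreted vasodilator peptide. It had 684 counts in the control, 320 in the USP39-KO and 1090 in the SIRT7-KO library, or 35.2, 19.4 and 66.8 CPM. The control lay between the knockouts, at log2 ratios of -0.86 (-1.05 to -0.66) for USP39-KO and 0.92 (0.78 to 1.06) for SIRT7-KO, neither of which reached 2-fold. Between the knockouts the ratio was 1.78 (1.60 to 1.96), the highest among the members.

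NDRG1, a stress-responsive cytoplasmic protein, had the most counts of the group, with 7800, 3893 and 10544 (401, 237 and 646 CPM). Per length it was the most abundant in the control and in SIRT7-KO, but not in USP39-KO (23.8 FPKM, against 35.6 for P4HA1). Like ADM, NDRG1 had the control in the middle, at log2 ratios of -0.76 and 0.69. Its ratio between the knockouts was 1.45, with 1.40 as the lower bound of its interval. ANKRD37, a small ankyrin-repeat protein, was the least abundant in the control and in USP39-KO, with 28, 18 and 56 counts (1.44, 1.09 and 3.43 CPM). Its SIRT7-KO library was high against control (1.24, 0.57 to 1.96) and against USP39-KO (1.62, 0.86 to 2.50). ANKRD37 shares 909 exon bases with UFSP2 on the opposite strand, and UFSP2 had 151, 81 and 96 counts, with log2 ratios of -0.66, -0.40 and 0.26. No source used here states whether counting was by strand, so the reads of such a pair cannot be told apart.

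The carbonic anhydrases CA9 and CA12 are membrane enzymes that regulate pH outside the cell, and they differed from each other. CA9 had 147 counts in the control, 50 in the USP39-KO and 146 in the SIRT7-KO library (7.57, 3.04 and 8.95 CPM). USP39-KO was low, at -1.31 (-1.81 to -0.84) against control, while SIRT7-KO lay near the control at 0.24, which leaves a ratio of 1.55 (1.09 to 2.05) between the knockouts. CA9 shares 643 exon bases with ARHGEF39 on the opposite strand, whose 472, 360 and 410 counts gave log2 ratios of -0.15, 0.05 and 0.20. CA12 had 385, 512 and 796 counts (19.8, 31.1 and 48.8 CPM) and was above the control in both knockouts, by 0.65 in USP39-KO and by 1.30 (1.12 to 1.48) in SIRT7-KO. CA9 accordingly made up 62.6% of their summed FPKM in the control, 30.0% in the USP39-KO and 44.5% in the SIRT7-KO library.

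Regulators that steer glucose carbon were spread around 0. PFKFB4, which makes and breaks the phosphofructokinase activator fructose 2,6-bisphosphate, had 616, 325 and 637 counts, with log2 ratios of -0.68, 0.30 and 0.98 (0.79 to 1.18 between the knockouts), just under the rule. It shares 289 exon bases with UCN2 on the same strand, which had 152, 76 and 127 counts and log2 ratios of -0.76, -0.01 and 0.75. Its relative PFKFB3 had 936, 909 and 901 counts, and its ratio between the knockouts was -0.00. PDK1, a kinase that inhibits pyruvate dehydrogenase, had 434, 312 and 507 counts and ratios of -0.24, 0.48 and 0.71, and PDK3, with 67, 65 and 48 counts, had 0.19, -0.23 and -0.42.

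The other hypoxia-induced genes had log2 ratios between -0.33 and 0.61. The mitophagy receptor BNIP3 had 1402, 1048 and 1582 counts, with a log2 ratio of 0.61 between the knockouts, and its relative BNIP3L had 3076, 2257 and 2898, with 0.37. BNIP3L shares 330 exon bases with PNMA2 on the opposite strand, whose 568, 322 and 55 counts gave ratios of -0.58, -3.11 and -2.53. The collagen prolyl hydroxylases P4HA1 and P4HA2 had ratios of 0.24 and 0.59 in SIRT7-KO against control, and the histone demethylase KDM3A had 0.24. VEGFA, the angiogenic growth factor and a well-known HIF target, ran the other way, with 4033, 3689 and 2903 counts and ratios of 0.11, -0.22 and -0.33. VEGFA, PDK3 and PFKFB3 were thus the 3 genes of the group whose ratio between the knockouts was below 0. For PFKFB3 that ratio was -0.0005 (-0.14 to 0.13) and became 0.0014 with DESeq2 size factors, so its sign depends on the scaling.

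**Figure D2:**
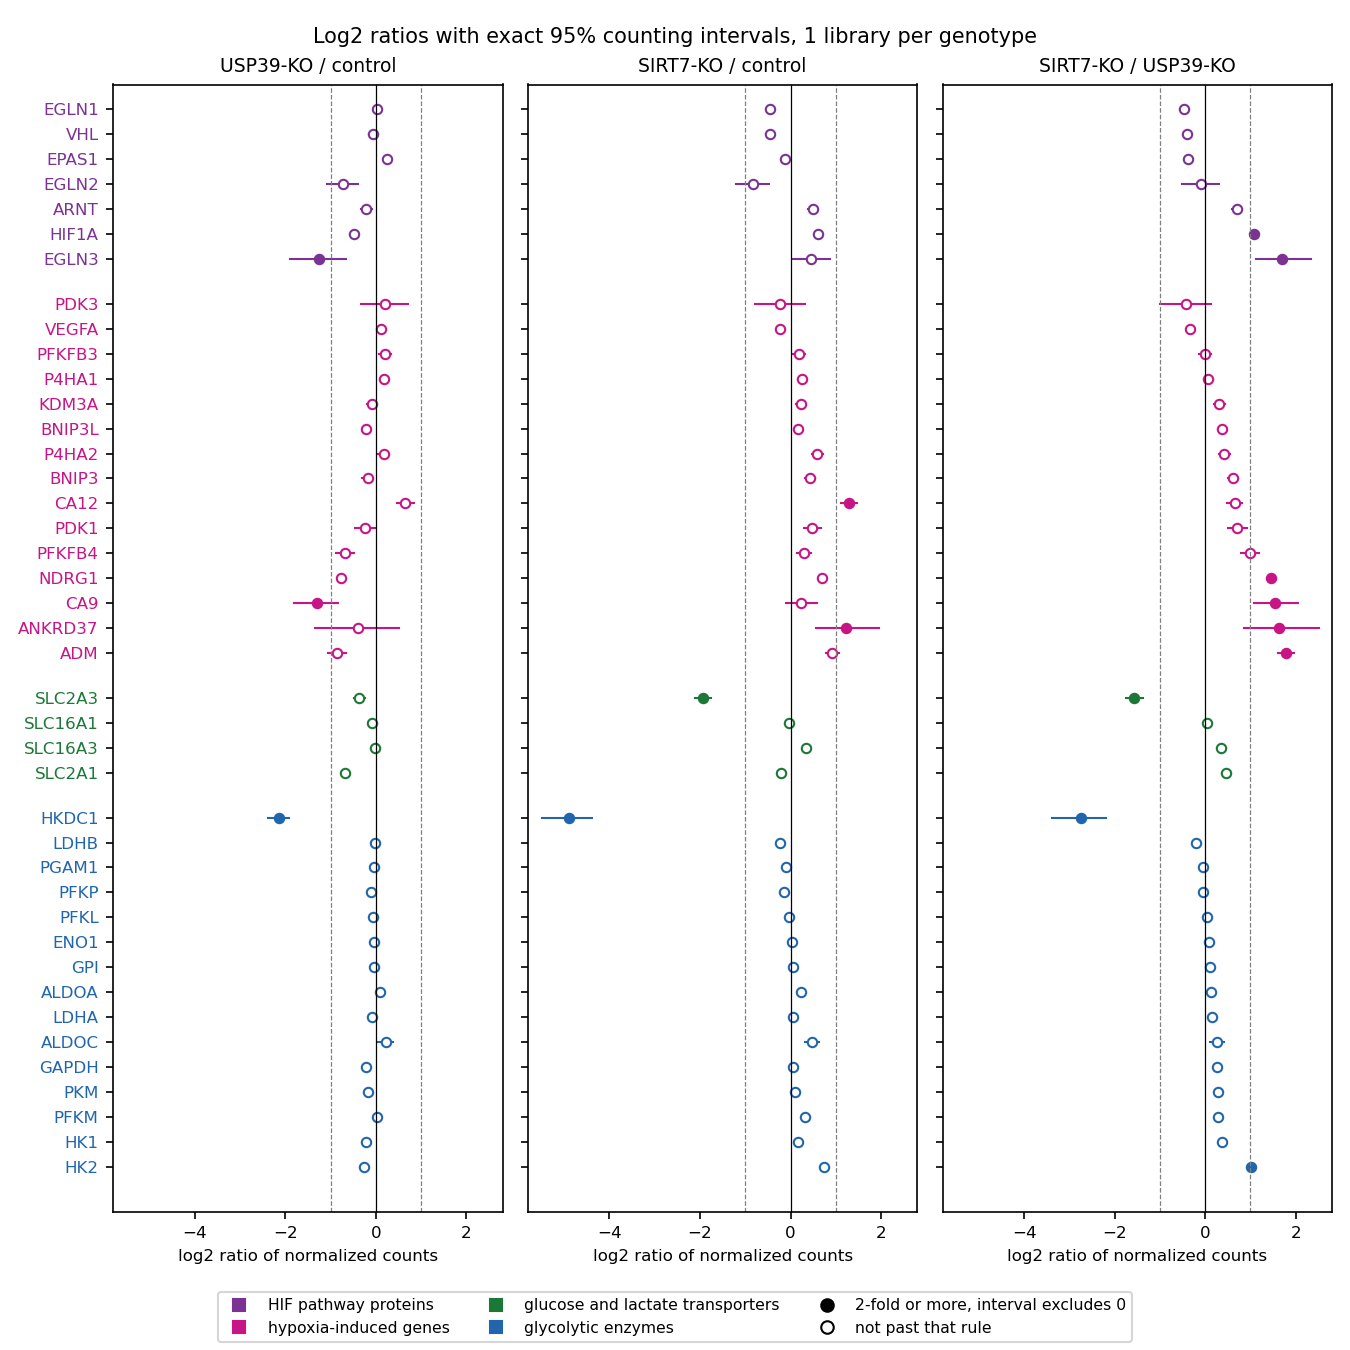
Log2 ratios of normalized counts with exact 95% counting intervals for the 41 members at or above the minimum count, in 3 panels for the 3 comparisons; filled points pass the 2-fold rule and dashed lines mark 2-fold. In the right panel (SIRT7-KO over USP39-KO) 7 members are filled on the high side, and HKDC1 and SLC2A3 on the low side.

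Glucose enters the cell through SLC2A1 (GLUT1) and SLC2A3 (GLUT3), and lactate leaves through SLC16A3 (MCT4) and moves both ways through SLC16A1 (MCT1). SLC2A3 was the transporter that differed: it had 1443 counts in the control, 951 in the USP39-KO and 318 in the SIRT7-KO library, or 74.3, 57.8 and 19.5 CPM. Only the SIRT7-KO library was low, at -1.93 (-2.11 to -1.75) against control and -1.57 (-1.76 to -1.38) against USP39-KO, while USP39-KO stood at -0.36 against control. SLC2A1 was instead lowest in USP39-KO, with 4136, 2192 and 2990 counts and ratios of -0.68, -0.22 and 0.46. SLC2A3 has a near-identical copy, SLC2A14 (2, 2 and 5 counts), and how reads matching both were counted is not known, so its level is uncertain. SLC2A1 held 80.8% of the summed FPKM of both carriers in the control, 77.1% in the USP39-KO and 93.2% in the SIRT7-KO library.

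The lactate carriers differed less. SLC16A1 had 4987, 3999 and 4105 counts and log2 ratios within 0.08 of 0 in each comparison, and SLC16A3 had 5364, 4494 and 5697 counts, with ratios of -0.02, 0.34 and 0.35. It shares 482 exon bases with CSNK1D on the opposite strand, whose ratios were -0.02, 0.02 and 0.03. By the 2-fold rule 0 transporters were higher in any comparison, and SLC2A3 was the 1 lower in both comparisons that include SIRT7-KO. In SIRT7-KO against control 4.05% of all genes were lower, and between the knockouts 3.51%.

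The hexokinases trap glucose as glucose 6-phosphate, the entry step of glycolysis, and 3 forms were measured: HKDC1 was highest in the control, while HK1 and HK2 were lowest in USP39-KO and highest in SIRT7-KO. HKDC1, the hexokinase domain-containing form, had 1036 counts in the control library, 198 in USP39-KO and 29 in SIRT7-KO, or 53.3, 12.0 and 1.78 CPM. It was lower than control in USP39-KO (-2.15, -2.37 to -1.93) and further below it in SIRT7-KO (-4.89, -5.49 to -4.38, or 29.6-fold lower). The knockouts also differed from each other, at -2.74 (-3.37 to -2.19). HK2, the hypoxia-responsive form, had 3423, 2401 and 4813 counts (176, 146 and 295 CPM), with ratios of -0.27, 0.74 and 1.02 (0.94 to 1.09, 2.02-fold). HK2 thus passed the rule by a small margin and between the knockouts only. HK1, the widely expressed form, had 5166, 3778 and 4848 counts and ratios of -0.21, 0.16 and 0.37.

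Per length, HK1 made up 51.0% of hexokinase FPKM in the control, HK2 34.4% and HKDC1 14.6%. In USP39-KO these shares were 58.1%, 37.5% and 4.36%, and in SIRT7-KO 49.6%, 50.0% and 0.424%. The summed level of the 3 genes was 84.6 FPKM in the control, 63.4 in the USP39-KO and 98.2 in the SIRT7-KO library, so the total was highest in the library where HKDC1 was lowest.

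HKDC1 lies on chromosome 10 (69220303 to 69267559, plus strand, GENCODE 29 on GRCh38), and HK1 begins 2424 bases after its end on the same strand. Within 250 kb, DDX21, KIFBP, SRGN, VPS26A, SUPV3L1, HK1 and TSPAN15 each stayed within 0.32 of the control on the log2 scale in both knockouts. TACR2 had 16, 11 and 3 counts, with a ratio of -2.01 (-4.58 to -0.36) in SIRT7-KO. The low level was therefore seen in HKDC1 and not in the 7 neighbours with 232 or more counts in every library. The hepatocyte transcription factor HNF4A had the same library order as HKDC1, with 113, 29 and 7 counts and ratios of -1.71, -3.68 and -1.96. HNF4A itself made up 5.82, 1.76 and 0.429 CPM of the summed hepatocyte list given above, so that sum is not a separate observation. FGB, of the same list, had 55, 1 and 2 counts. The part of these markers in the HKDC1 result was not tested, and in bulk RNA fewer cells with a transcript and less of it per cell cannot be told apart.

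**Figure D3:**
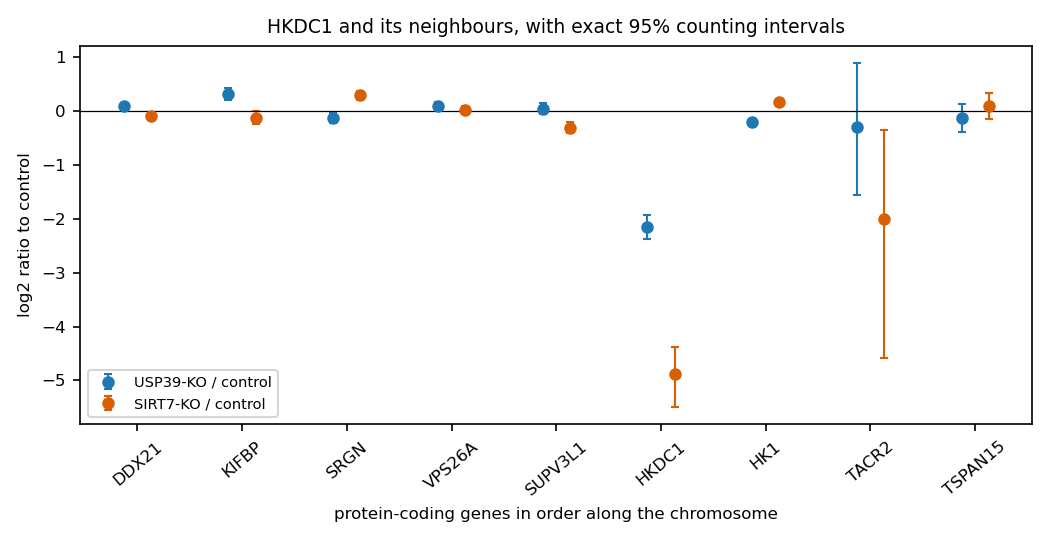
Log2 ratio to control of HKDC1 and the protein-coding genes within 250 kb, in order along the chromosome, for USP39-KO and SIRT7-KO; bars are exact 95% counting intervals. HKDC1 lies at -2.15 and -4.89 while HK1 beside it lies at -0.21 and 0.16, and the long bars of TACR2 reflect its 16, 11 and 3 counts.

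Below the hexokinases the glycolytic chain was nearly level across the libraries. All 12 measured enzymes from GPI to the lactate dehydrogenases stayed within 1.5-fold in each of the 3 comparisons, where 86.3%, 81.0% and 77.0% of all genes did, and 94.1%, 88.7% and 84.9% of the 10181 genes with at least 100 counts. Their log2 ratios ran from -0.22 to 0.22 in USP39-KO against control (median -0.05), from -0.24 to 0.47 in SIRT7-KO against control (median 0.05) and from -0.21 to 0.29 between the knockouts (median 0.12). With the hexokinases and the 2-fold rule, 0 of 15 enzymes were higher and 1 lower in each comparison with control. Between the knockouts 1 was higher and 1 lower. The background of 12726 genes had a fall in 3.37% (USP39-KO) and 4.05% (SIRT7-KO) against control. Between the knockouts it had a rise in 5.03% and a fall in 3.51%. A count of 1 in 15 (6.67%) cannot be told apart from these shares.

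These are abundant transcripts with narrow counting intervals, which do not cover the spread between cultures. GAPDH, which oxidizes glyceraldehyde 3-phosphate, had 50970 counts in the control, 37058 in the USP39-KO and 44199 in the SIRT7-KO library, and at 882 FPKM it ranked 16 of all genes in the control. Its log2 ratios were -0.22, 0.05 and 0.27. ENO1, the enolase, ranked 22 with 745 FPKM, and its 57295, 46987 and 49334 counts gave ratios of -0.05, 0.04 and 0.08. PKM, pyruvate kinase, had 41493, 30949 and 37223 counts and ratios of -0.18, 0.09 and 0.28. The other abundant enzymes were as level: the aldolase ALDOA had 0.09, 0.22 and 0.13, the isomerase GPI -0.05, 0.06 and 0.11, and the mutase PGAM1 -0.04, -0.09 and -0.05. Summed, all enzymes took 1.47% of counts in the control, 1.36% in the USP39-KO and 1.54% in the SIRT7-KO library.

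The steps with several forms differed in make-up by a few percentage points. Among phosphofructokinases, which catalyse the committed step, PFKP held 59.0% of FPKM in the control, 57.5% in the USP39-KO and 53.8% in the SIRT7-KO library, and the muscle form PFKM 20.7%, 22.3% and 26.2%. PFKM shares 628 exon bases with SENP1 on the opposite strand, whose ratios were -0.07, 0.06 and 0.12. The liver form PFKL stayed near 20% (20.2%, 20.2% and 20.1%). For lactate dehydrogenase, LDHA, the form favouring lactate production, had 47589, 38036 and 41580 counts and LDHB 21685, 18002 and 15432. Their log2 ratios in SIRT7-KO against control were 0.06 and -0.24, and LDHA held 51.3%, 50.4% and 56.4% of their summed FPKM. ALDOC, the minor aldolase, had 589, 580 and 687 counts and the highest ratio of the 12 in SIRT7-KO, 0.47.

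**Figure D4:**
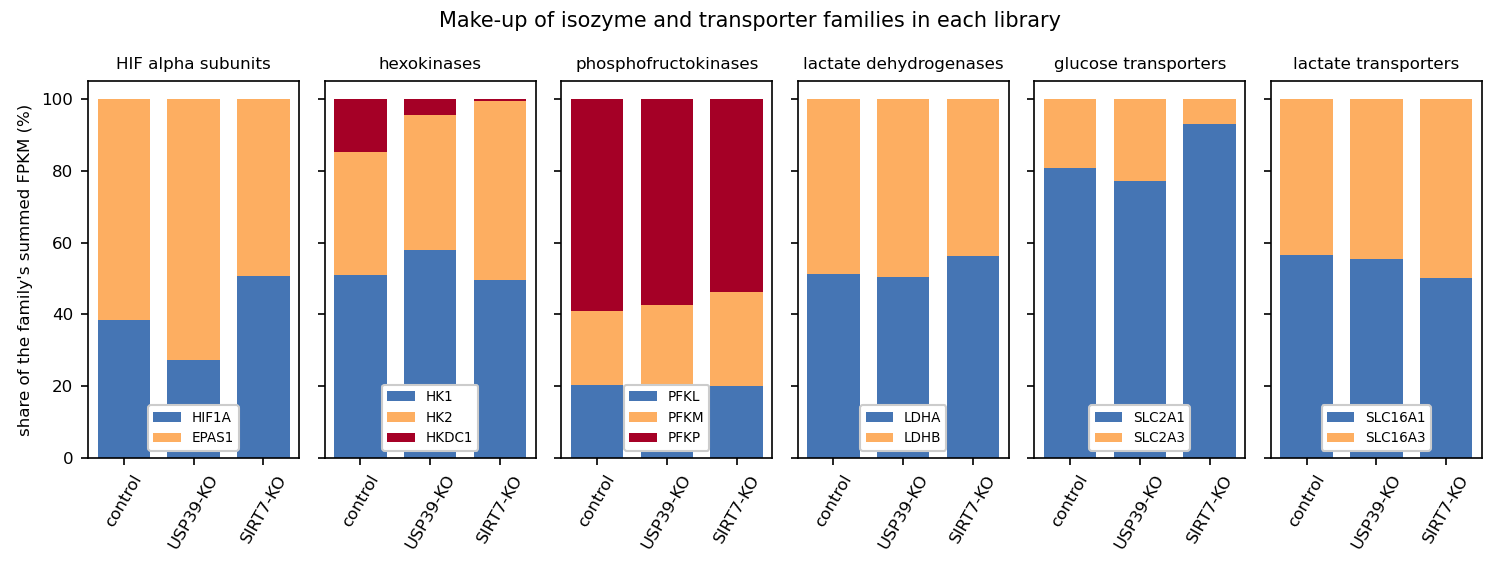
Share of each family's summed FPKM held by each form, in 1 stacked bar per library. HIF1A goes from 38.5% to 27.3% and 50.8% of the alpha subunits, HKDC1 from 14.6% to 4.36% and 0.424% of the hexokinases, and the phosphofructokinase and lactate dehydrogenase bars differ by fewer percentage points.

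TPI1, PGK1 and ENO2 encode triosephosphate isomerase, phosphoglycerate kinase and the neuronal enolase, and the first and second are steps without a common substitute. A listing at 0 beside the counts of GAPDH and PKM given above does not show that they are absent. TPI1 and ENO2 lie in 1 run of 14 neighbouring protein-coding genes all listed at 0 (CD4 to PHB2, chromosome 12, 6786858 to 6970825), which also holds USP5 and ATN1. LAG3 and EMG1 at its ends had 32, 51 and 30, and 55, 62 and 31 counts. PGK1 lies in a run of 12 on chromosome X (ZDHHC15 to TAF9B), which also holds ATRX and COX7B. Of 19130 protein-coding genes, 4413 (23.1%) were at 0 in every library, and 48 runs of 10 or more neighbours were found.

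The contrast between hypoxia-induced genes and enzymes was seen in the distribution of ratios between the knockouts, with medians of 0.61 and 0.13 beside -0.00 for all genes. It did not rest on the control library. It was not tested as a difference of groups, since 1 library per genotype gives no replicate error.

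**Figure D5:**
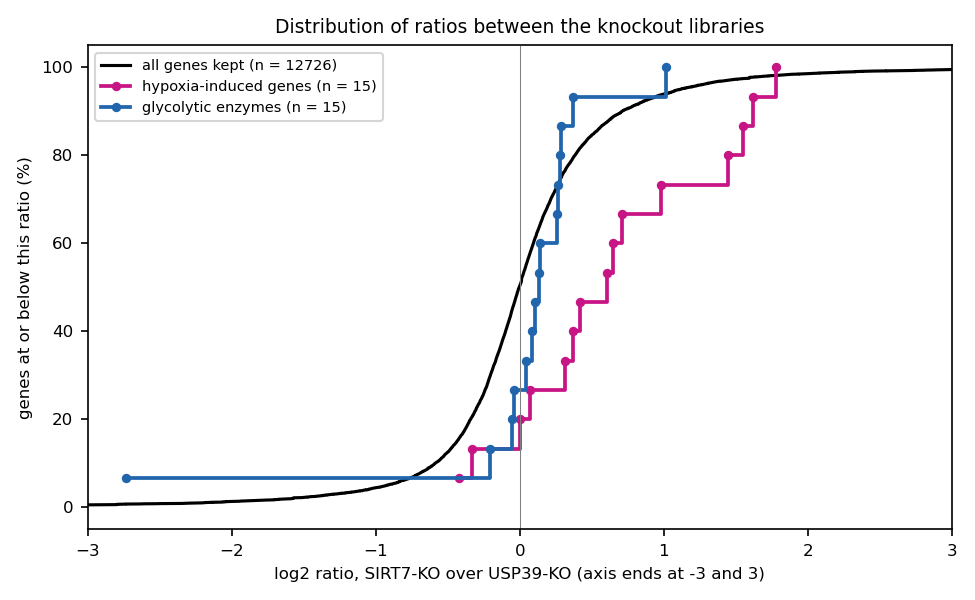
Cumulative share of genes (%) against the log2 ratio of SIRT7-KO over USP39-KO for the 15 hypoxia-induced genes, the 15 measured glycolytic enzymes and all 12726 genes. The hypoxia-induced curve lies to the right with its median at 0.61, and the enzymes rise steeply near 0 apart from HKDC1 at -2.74 and HK2 at 1.02.

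Further hypoxia genes, listed beside the members, had medians nearer 0 than the hypoxia-induced group. The further list also holds HIF pathway proteins such as ARNT2, so the sets are not alike. Of 44 further hypoxia genes, 40 were at or above the minimum count, with medians of -0.03, 0.15 and 0.16, beside -0.00, -0.01 and -0.00 for all genes. The 2-fold rule was passed by 2 of the 40 in USP39-KO, both lower (3.37% of all genes). In SIRT7-KO against control 3 of the 40 were higher and 1 lower (all genes 3.02% and 4.05%), and between the knockouts 4 were higher in SIRT7-KO and 2 lower (all genes 5.03% and 3.51%). STC1 and STC2, both stanniocalcins, differed in pattern: STC1 had 90, 21 and 76 counts, low in USP39-KO, and STC2 had 2810, 1965 and 897, low in SIRT7-KO. ARNT2, a relative of ARNT, had 23, 1 and 50 counts, and TFRC, the transferrin receptor, had 21018, 23939 and 10418. PPP1R3C had 352, 315 and 610 counts and was higher in SIRT7-KO against control (1.04). ANGPTL4 had 106, 73 and 159 counts and was higher in SIRT7-KO than in USP39-KO (1.13).

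Of 50 further genes of carbohydrate metabolism, 34 were at or above the minimum count, with medians of -0.00, 0.07 and 0.07. The 2-fold rule was passed by 0 in USP39-KO, by 3 in SIRT7-KO (1 of them higher) and by 4 between the knockouts (3 of them higher in SIRT7-KO). As shares of the 34, 2.94% and 5.88% stood higher and lower in SIRT7-KO, near those of all genes (3.02% and 4.05%), and 8.82% and 2.94% between the knockouts (all genes 5.03% and 3.51%). The insulin-responsive glucose carrier SLC2A4 had 47, 26 and 131 counts and was higher in SIRT7-KO against both libraries (1.72 and 2.32). PDK4, at 59.3 FPKM the most abundant pyruvate dehydrogenase kinase in the control, had 5209, 6064 and 2881 counts, lower in SIRT7-KO than in USP39-KO by 1.06 on the log2 scale, the reverse of PDK1. PCK2, the mitochondrial gluconeogenic enzyme, had 1243, 984 and 488 counts.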

How the data were processed

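Total RNA from cells labelled Hep3B was extracted with Trizol and made into libraries with a TruSeq kit, per the labels' protocols. The authors deposited 1 table with a length, raw read counts and FPKM per gene and library, per the file headers. Aligner, counting software, build and strand setting were not given in the sources used here. Deposited FPKM equal the counts divided by listed length and library total for every gene with reads, within a relative tolerance of 1e-06, and were used only to compare levels between genes. No per-sample column was left unused (0).

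Symbols and positions came from GENCODE 29 by Ensembl identifier (19649 of 22827 identifiers had a symbol). The members and gene lists were chosen with earlier results of these data known. TMM factors (1, 0.9896 and 1.0104 for control, USP39-KO and SIRT7-KO) came from edgeR 4.0.16 in R 4.3.3. Log2 ratios were taken after adding 0.5 counts, scaled by depth, with exact conditional binomial (Clopper-Pearson) intervals from scipy 1.17.1. Genes with 10 or more counts in 1 or more libraries were kept. Shares of all counts have exact binomial intervals. Reads lack molecular identifiers, so they are not independent molecules, and every interval or floor covers counting error alone. Where a gene has no counts, up to 3 remain possible (0.154, 0.182 and 0.184 CPM). With 1 library per genotype no dispersion can be estimated, so no p-value is given. Members named with values are those past the 2-fold rule in any comparison, up to 4 per group farthest from 0 with at least 100 counts, and the most abundant of each group, with the others given as values beside them. The steps were tested on simulated data. Alternatives were DESeq2 1.42.0 size factors, library totals alone, a prior of 5, minimums of 1 and 100 counts and a 1.5-fold rule. Promoters came from a RefSeq table (GRCh38.p14) without entries for every member. Values of 1 listed gene are not reported here.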

Additional observations from a re-analysis of the deposited data

How the results depend on the processing

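No paired analysis was possible because each genotype has 1 library. For the same reason no library could be left out of a comparison. Counts of members past the 2-fold rule stayed within 1.5 times, and group medians kept their direction, under DESeq2 size factors, library totals alone and a minimum of 1 count, and the medians did so with a prior of 5. The median of all genes moved by at most 0.03 between these scalings. With a minimum of 100 counts, 1 in place of 2 hypoxia-induced genes was higher in SIRT7-KO against control, since ANKRD37 was no longer included. With the 1.5-fold rule, USP39-KO against control had 2 HIF pathway proteins lower, 1 hypoxia-induced gene higher and 4 lower, and 1 transporter lower. SIRT7-KO against control then had 1 HIF pathway protein higher and 1 lower, 5 hypoxia-induced genes higher and 1 enzyme higher, and between the knockouts 8 hypoxia-induced genes were higher in SIRT7-KO. The shares of all genes under the 1.5-fold rule were 3.19% higher and 6.40% lower in USP39-KO, 7.21% and 7.83% in SIRT7-KO, and 10.3% and 7.91% between the knockouts. With library totals alone PFKFB4 passed the 2-fold rule between the knockouts, at 1.01. HIF1A and HK2, with TMM factors, are above 2-fold between the knockouts by a small margin (1.09 and 1.02). Depth limits the members with 50 counts or fewer in a library, which are ANKRD37 in the control, EGLN3, CA9 and ANKRD37 in USP39-KO, and HKDC1 and PDK3 in SIRT7-KO. Of the members, 10 share exon bases with another gene of the table, CA9, ANKRD37, PFKFB4, BNIP3L, SLC16A3 and PFKM with a gene that has reads, and reads of such pairs cannot be told apart. The annotation names 147 pseudogenes of 16 members, 62 of them of GAPDH, and none (0) has a row in the table.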
